A study of Mus musculus with 17 samples.

Results

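The HSP70 and HSP110 chaperones were followed through 17 Affymetrix mouse arrays by every probe set annotated with 1 of 10 gene symbols alone, which gave 32 probe sets of the 45101 on the array. The symbols were Hspa1a (1 probe set), Hspa1b (3), Hsph1 (2), Hspa4l (5), Hspa4 (4), Hspa8 (4), Hspa2 (1), Hspa5 (3), Hspa9 (5) and Hspa12a (4). All 32 entered the fits, since no filter on dim probe sets was set. These genes were 10 of the 18193 that the array reads by a probe set of a single symbol. They were chosen by family and with earlier KO, WT and CA13 values of these arrays known, so those values are given as a description.

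The KO samples (n = 8) carried conditional alleles of Foxo1, Foxo3 and Foxo4 deleted by Cre under the human GFAP promoter, and the WT samples (n = 7) were wild type. The study's methods place the mice on a mixed FVB and B6 background, and the deletion reached neurons and glia alike, because this Cre acts in their common progenitors. The RNA came from dentate gyrus neurons collected by laser capture, whereas the labels name only brain, and the sources used here give neither the age nor the sex of these samples. A further KO sample of the mark 433 and a further WT sample of the mark 437 carry CA13 in their titles, which the sources do not explain. The titles also hold a number that is read here as an array series, although no label or method says what it stands for. There was a larger series of 6 KO and 5 WT unmarked samples and a smaller one of 2 KO (390, 391) and 2 WT (392, 393). Each mark was taken as 1 animal, which the sources do not state outright, so errors here measure the spread between samples and may be partly technical.

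HSP70 proteins bind stretches of unfolded polypeptide and release them in a cycle of ATP binding and hydrolysis, which J-domain proteins start and nucleotide exchange factors complete. The HSP110 proteins, relatives with an enlarged substrate domain, are themselves exchange factors for HSP70 and hold unfolded proteins in solution. Some members are made at all times and others are switched on by heat shock factor 1 or by the unfolded protein response, and neurons are known for a weak induction of the heat-inducible ones.

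The promoter sequences show which of these genes carry the elements of the inducible programmes. A 300-base RefSeq window around the transcription start (GRCm38.p6) was used for 8 of the 10 genes. Hspa8 and Hspa9 were not searched, so the motif counts say nothing about them. Hspa1a (chr17:34969359-34972156) and Hspa1b (chr17:34956429-34959238), the heat-inducible HSP70 genes, are neighbours with 10120 bases between them, and their windows differed at 4 of 300 bases (98.7% identity), 1 of them among the 130 printed. The 130 bases upstream of each start are shown because both hold a pair of heat shock units facing each other (GAANNTTC), and Hspa5 is shown for its ER stress response element. Hsph1 has 2 windows in the RefSeq table, and the 2 short stretches printed lie in both. The pair in the first stretch lies upstream of both starts. The 3 units in the second lie downstream of both, at bases 16 to 28 in 1 window and 37 to 49 in the other. All are read on the gene's own strand, the minus strand for Hspa1a, Hspa1b and Hsph1 and the plus strand for Hspa5.
Hspa1a, chr17:34972157-34972286, with the heat shock units, the CCAAT box and the GC boxes in capitals: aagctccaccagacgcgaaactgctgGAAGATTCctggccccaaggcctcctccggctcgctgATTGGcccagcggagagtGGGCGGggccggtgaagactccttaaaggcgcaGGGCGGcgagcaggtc
Hspa1b, chr17:34959239-34959368, marked in the same way: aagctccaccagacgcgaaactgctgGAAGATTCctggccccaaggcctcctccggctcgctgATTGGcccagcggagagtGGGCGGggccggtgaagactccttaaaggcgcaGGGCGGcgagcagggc
Hspa5, chr2:34771960-34772089, with the ER stress response element and a CCAAT box in capitals: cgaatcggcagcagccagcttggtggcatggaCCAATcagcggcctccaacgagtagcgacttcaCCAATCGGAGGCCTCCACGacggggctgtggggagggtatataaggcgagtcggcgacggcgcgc
Hsph1, chr5:149636351-149636380, with 2 heat shock units facing apart (TTCNNGAA) in capitals: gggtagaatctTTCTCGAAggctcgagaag
Hsph1, chr5:149636287-149636308, with 3 heat shock units in capitals: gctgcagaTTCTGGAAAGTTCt

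Heat shock units in a row were a feature of few promoters. The letters were searched on both strands, and the 3-unit element GAANNTTCNNGAA, which contains both pairs, lay in 0.603% of the 32851 mouse windows of this length and, among the members, in Hsph1. The facing pair GAANNTTC lay in 7.86% of windows and in Hspa1a, Hspa1b and Hsph1. TTCNNGAA lay in 8.52% of windows and, among the members, in Hsph1. The ER stress response element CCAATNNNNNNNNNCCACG, which overlaps the CCAAT box, lay in 0.119% of windows and, of the 8 member genes with a window, in Hspa5. CCAAT (37.4% of windows) lay in 5 member genes and GGGCGG (35.7%) in 7. The FOXO motif GTAAACA (3.65%), the cyclic AMP element TGACGTCA (1.79%) and TATAAA (13.6%) were found in 0 of the 8.

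The captured material carried the granule neuron profile in 14 of the 15 unmarked samples, and 3 libraries have to be read with their markers in view. The mean log2 level of 15 dentate granule markers was 8.66 in the library labelled 433, 11.13 to 11.34 in the other KO samples and 11.17 to 11.46 in WT samples. For 14 CA pyramidal markers it was 10.95, 8.23 to 8.92 and 8.30 to 8.96 in the same order. Granule and CA markers stood at 8.51 and 10.9 in the CA13-marked sample of 437, and at 11.3 and 8.24 in that of 433. The 2 samples of mark 433 may thus carry each other's labels, which was not tested. The library labelled 433 is therefore called by its label throughout, and KO values are also given without it. The signal of the brightest Foxo1 probe set was 120.6 to 658 in KO against 4970 to 19074 in WT, where all 7 samples had the granule profile. Foxo1 was at 335 in the library labelled 433 and at 833 in the CA13-marked WT sample of 437, so its low signal in the library labelled 433 is a weaker check of deletion there. The log2 ratio of the Gapdh signal at the 3' and 5' ends, a measure of RNA quality, was 5.04 to 6.41 in KO and 5.11 to 6.23 in WT.

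No member separated KO from WT dentate gyrus. Of the 32 probe sets, 0 were called by limma at an adjusted p under 0.05, where 0.0133% of all 45037 probe sets tested were (6 probe sets). At an unadjusted p under 0.05, 1 member was higher in KO, Hspa1a, beside 1.54% of all probe sets, and 0 were lower, beside 1.68%. SAM, the test named in the study's methods, called 0 members at a 2-fold change and an FDR of 5%, beside 0.0155% of all probe sets. No member difference reached 2-fold, so that cut was enough to fix this 0, and no member passed the FDR either. The methods' t-test had 1 at an unadjusted p under 0.05, beside 3.35%, and 0 after Benjamini-Hochberg adjustment, beside 0.00888%. In 0 of the 32 the KO and WT samples failed to overlap, beside 0.0289% of all probe sets, or 0 beside 0.0644% without the library labelled 433. Since the members were chosen with this contrast known, nothing is read from these counts.
The fold changes of the family centred on 0. In the fits, 18 probe sets were higher and 14 lower in KO, and the median log2 fold change, KO minus WT on the quantile-normalized log2(signal + 32) scale, was 0.02, beside 0.00 over all probe sets. Without the library labelled 433, 15 were higher and 17 lower, and the median was -0.01. The lowest value was -0.60, a dim probe set of Hspa8, and the highest 0.68, Hspa1a. With RNA quality as a covariate the median was -0.02.
Oligodendrocyte markers had higher mean levels in KO in the same samples without passing the adjusted test. Of 8, 0 were called by limma and 3 were higher in KO at an unadjusted p under 0.05 (1.53% of genes), and their mean log2 level was 9.88 to 10.88 in KO samples and 9.31 to 10.33 in WT samples. Their summed signal ranged from 29850 to 57040 in KO and from 18160 to 41820 in WT, and their part in the chaperone values was not tested.

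**Figure D1:**
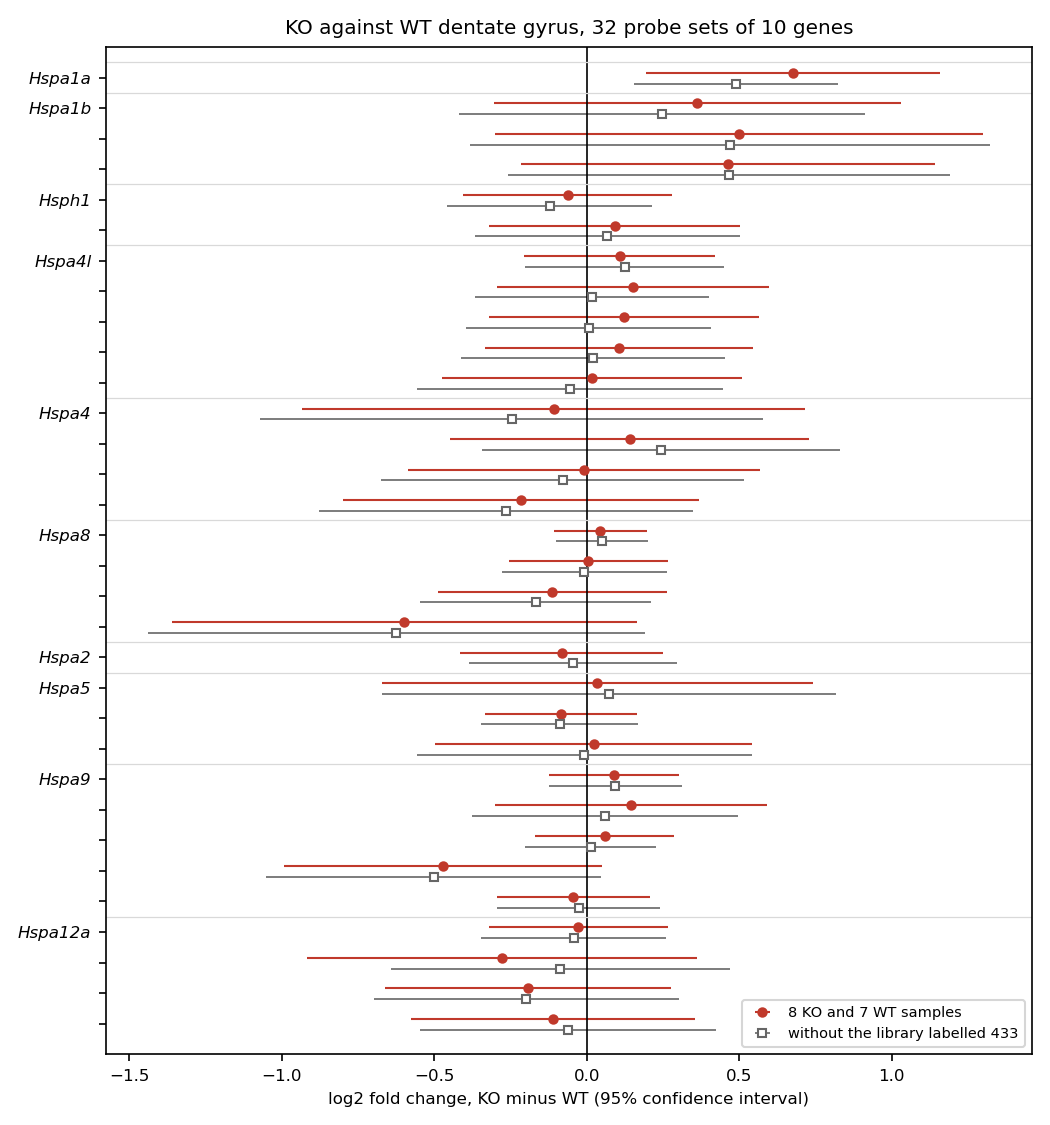
Log2 fold change, KO minus WT, of 32 probe sets in 10 genes, each gene's probe sets ordered from the brightest down, with bars for the 95% confidence interval. Filled circles use 8 KO and 7 WT samples and open squares leave out the library labelled 433. Hspa1a, at the top, lies at 0.68 and 0.49, and the interval of every other probe set includes 0.

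Hspa1a, the stress-induced cytosolic HSP70, had the highest value of the family. Its deposited signal had a lowest, median and highest value of 747, 989 and 2578 in KO samples and of 452, 697 and 912 in WT samples. All 8 KO samples lay above the WT median and 6 above the highest WT sample, while 384 and 390 lay within the WT range, so the groups overlapped. On the log2 scale the means were 10.09 ± 0.57 (SD, n = 8) in KO and 9.41 ± 0.34 (SD, n = 7) in WT, a difference of 0.68 (standard error 0.23, 95% confidence interval 0.19 to 1.16).
A single library carried part of that difference. The library labelled 433 had the signal of 2578, while no other KO sample exceeded 1105, and without it the difference was 0.49 (standard error 0.16, interval 0.16 to 0.82). Taking the CA13-marked sample of 433 instead gave 0.56. Within the larger array series the Hspa1a difference was 0.71, or 0.47 without the library labelled 433, and within the smaller series, where KO had 747 and 975 and WT had 452 and 697, it was 0.55. With RNA quality as a covariate it was 0.63. Its adjusted p was 1.00 in limma with or without the library labelled 433.

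Hspa1b encodes a nearly identical HSP70, so that signal given to either gene may come in part from the other, and how far the probes tell them apart was not tested. The brightest of its 3 probe sets had a lowest, median and highest signal of 2839, 6943 and 11052 in KO samples and of 2001, 4621 and 8638 in WT samples. The groups overlapped widely: 3 KO samples, 903, MS15 and 433, lay above all WT samples, and 390, 384 and 391 lay in the lower part of the WT range. The log2 fold changes of the 3 probe sets, from the brightest down, were 0.36 (95% confidence interval -0.30 to 1.03), 0.50 (interval -0.30 to 1.30) and 0.46 (interval -0.22 to 1.14). The WT sample 392 had the lowest signal in all 3 probe sets, and without it the values were 0.18, 0.20 and 0.24. Within the smaller array series they were 0.06, 0.13 and 0.06, and within the larger one 0.42, 0.58 and 0.56.
Hspa1b was among the more variable transcripts of these arrays. The spread within KO and WT, as a standard deviation on the log2 scale, was 0.70, 0.83 and 0.69 for its 3 probe sets, wider than that of 94.2%, 97.7% and 93.9% of all probe sets. For Hspa1a it was 0.48, wider than 68.7%, and 0.29 without the library labelled 433.

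**Figure D2:**
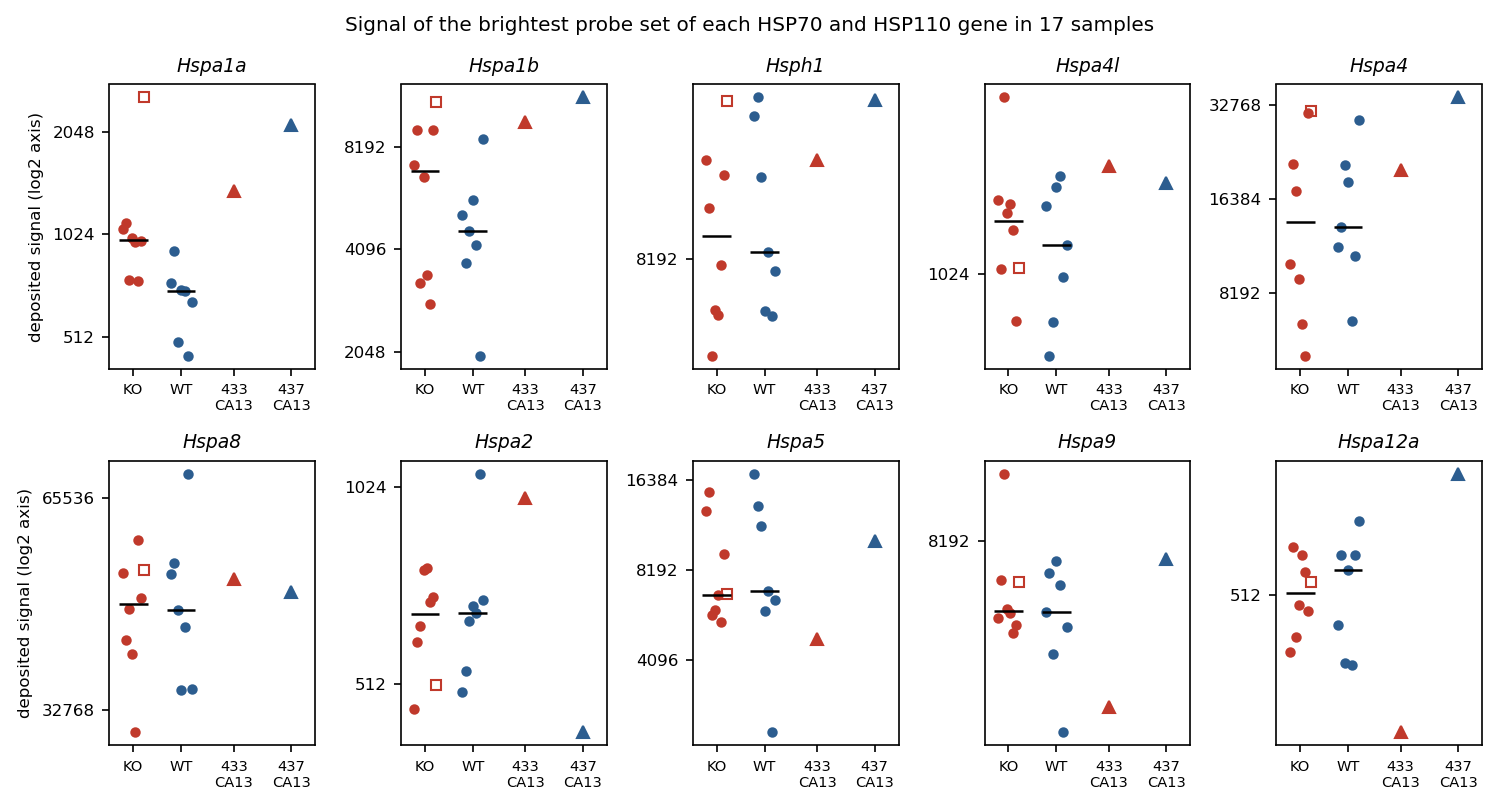
Deposited signal on a log2 axis of the brightest probe set of each gene in 8 KO samples (red) and 7 WT samples (blue), with lines at the medians, an open square for the library labelled 433 and triangles for the CA13-marked samples. In the Hspa1a panel the library labelled 433, at 2578, and the CA13-marked samples of 433 and 437, at 1375 and 2137, lie above the other 14 samples.

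The HSP110 genes had small KO minus WT differences. Hsph1 (chr5:149616843-149636498), the heat-inducible HSP110, had a lowest, median and highest signal of 6236, 8739 and 12750 in KO samples and of 6965, 8345 and 12890 in WT samples for its bright probe set. The ranges nearly coincided, and the log2 fold change was -0.06 (interval -0.41 to 0.28). Its dim probe set had 0.09 (interval -0.32 to 0.50).
Hspa4l (chr3:40744500-40796103), an HSP110 also known as an osmotic stress protein, had 5 probe sets with log2 fold changes of 0.02 to 0.15, and of -0.06 to 0.12 without the library labelled 433. The brightest had a signal of 883, 1211 and 1794 in KO samples and of 791, 1125 and 1396 in WT samples (lowest, median and highest), with 0.11 (interval -0.21 to 0.42). The KO and WT ranges overlapped in all 5.
Hspa4 (chr11:53259814-53300479), the constitutive HSP110, spread far more among samples than between genotypes. Its brightest probe set had a signal of 5170, 13807 and 31332 in KO samples and of 6653, 13358 and 29460 in WT samples, with a log2 fold change of -0.11 (interval -0.93 to 0.72). The standard deviation within groups was 0.87 on the log2 scale, wider than 98.2% of all probe sets. The next brightest had 0.14 (interval -0.45 to 0.73), and the dim ones had -0.01 and -0.22.

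The constitutive cytosolic members differed little where their signal was high. Hspa8 (chr9:40801276-40805202), the main HSP70 of resting neurons, which also uncoats clathrin vesicles, gave one of the highest signals on the arrays, at rank 4 to 17 of 45037 probe sets on every array. The brightest of its 4 probe sets had a signal of 30481, 46338 and 56977 in KO samples and of 34990, 45388 and 70789 in WT samples, with groups that overlapped. Its log2 fold change was 0.04 (interval -0.11 to 0.20), and -0.05 with the deposited scaling or -0.06 after median centring, so its direction depended on the scaling. Ranks this close to the top leave quantile-normalized values little room to vary, and the standard deviation within groups was 0.07, wider than 0.542% of probe sets.
The Hspa8 probe sets did not move as 1 gene. The middle pair had 0.01 (interval -0.26 to 0.27) and -0.11 (interval -0.49 to 0.26). The dimmest had -0.60 (interval -1.36 to 0.16), with a signal of 86.7, 249.5 and 443 in KO samples against 119, 418 and 718 in WT samples. That lower value came from the larger array series, with -0.92 there and 0.23 in the smaller one, and the test of the difference between the series is given with the others.
Hspa2 (chr12:76403812-76406938), an HSP70 known mainly for its need in male meiosis, had a signal of 471, 656 and 771 in KO samples and of 499, 658 and 1071 in WT samples. The medians were almost equal, and the log2 fold change was -0.08 (interval -0.42 to 0.25).

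The organelle members were no further apart. Hspa5 (chr2:34772090-34776529), the endoplasmic reticulum chaperone BiP, had a brightest probe set with a signal of 5468, 6759 and 14953 in KO samples and of 2344, 6932 and 17138 in WT samples. The groups overlapped over most of this wide range, the log2 fold change was 0.03 (interval -0.67 to 0.74), and the standard deviation within groups was 0.74, wider than 95.8% of probe sets. The other Hspa5 probe sets had -0.09 (interval -0.34 to 0.16) and 0.02 (interval -0.50 to 0.54).
Hspa9 (chr18:34937414-34954351), the mitochondrial HSP70 mortalin, which draws proteins into the matrix, varied little in its brightest probe set and more in the next. The brightest probe set had a signal of 6825, 7131 and 9355 in KO samples and of 5609, 7116 and 7871 in WT samples, with a log2 fold change of 0.09 (interval -0.13 to 0.30) and a standard deviation within groups of 0.16. For the next brightest that standard deviation was 0.44, wider than 61.1% of probe sets. Of the other 4, the 2 with a signal above 1000 on every array had 0.14 and 0.06, and the 2 near the floor had -0.47 (interval -0.99 to 0.05) and -0.04.
Hspa12a (chr19:58795750-58943672), a distant relative with an atypical ATPase domain, had a signal of 417, 516 and 610 in KO samples and of 398, 562 and 668 in WT samples for its brightest probe set. These ranges overlapped, and the log2 fold change was -0.03 (interval -0.32 to 0.27). The 3 dimmer ones had -0.28, -0.19 and -0.11, and -0.28 became -0.09 without the library labelled 433.

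Hspa1b, by all 3 of its probe sets, and the brightest Hspa4 probe set were among the members higher in the larger array series, a contrast that the choice of members did not use. Adjusted for genotype, 6 of the 32 probe sets were higher in the 11 samples of the larger series than in the 4 of the smaller one at an adjusted p under 0.05 from limma, beside 5.37% of all probe sets, and 0 were lower, beside 4.45%. With each array centred on its median, 5 members were higher, beside 4.33% higher and 5.04% lower over all probe sets. The median over the 32 was 0.30 on the log2 scale, against -0.02 over all probe sets.
Hspa4 had the largest series difference of the family. Its brightest probe set had a signal of 9080, 18563 and 31332 (lowest, median and highest) in the larger series and of 5170, 6599 and 10784 in the smaller series, a log2 difference of 1.38 (interval 0.75 to 2.02, adjusted p = 0.00858). The ranges of the series overlapped only between 9080 and 10784. The next brightest Hspa4 probe set went the other way, with -0.72 (interval -1.29 to -0.16, adjusted p = 0.099).
Hspa1b was higher in the larger series in all 3 probe sets. The brightest had a signal of 3266, 6663 and 11052 in the larger series and of 2001, 3139 and 4205 in the smaller series, with a log2 difference of 1.03 (adjusted p = 0.0219). The other 2 had 1.24 (adjusted p = 0.0215) and 0.96 (adjusted p = 0.0427). Hspa1a had 0.38 (interval -0.13 to 0.90, adjusted p = 0.368), so that a difference of up to 0.90 was not excluded by its interval.
A dim Hspa4l probe set and the dimmest of Hspa5 were the remaining calls. Hspa4l had a signal of 127.7, 247 and 296 in the larger series and of 97.9, 110 and 166 in the smaller series, with a log2 difference of 0.77 (adjusted p = 0.017). Hspa5 had 400, 632 and 831 against 253, 352 and 364, with 0.81 (adjusted p = 0.0176), and its series did not overlap. The other Hspa5 probe sets had 0.86 (adjusted p = 0.106) and 0.30 (adjusted p = 0.0978).
The Gapdh ratio had a higher median in the larger series, whose range held that of the smaller one. The Gapdh log2 ratio ranged from 5.04 to 6.41 (median 5.72) in the larger series and from 5.11 to 5.37 (median 5.30) in the smaller series. The same ratio for beta-actin ranged from 5.43 to 6.54 in the larger series and from 5.73 to 6.39 in the smaller one. A fit with the Gapdh ratio as a covariate was added after the data were seen. In it 1 member was called, the brightest of Hspa4, beside 1.85% of all probe sets higher and 1.51% lower. It was also the only member called without the WT sample 392, when 2.18% of all probe sets were called higher, and without the KO sample 390 it and the Hspa5 probe set were called, beside 2.62%. With only 4 samples in the smaller series, the count depended on 2 of them, for the members as over all probe sets. The parts of RNA quality and of the single libraries in these differences were not tested further.

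**Figure D3:**
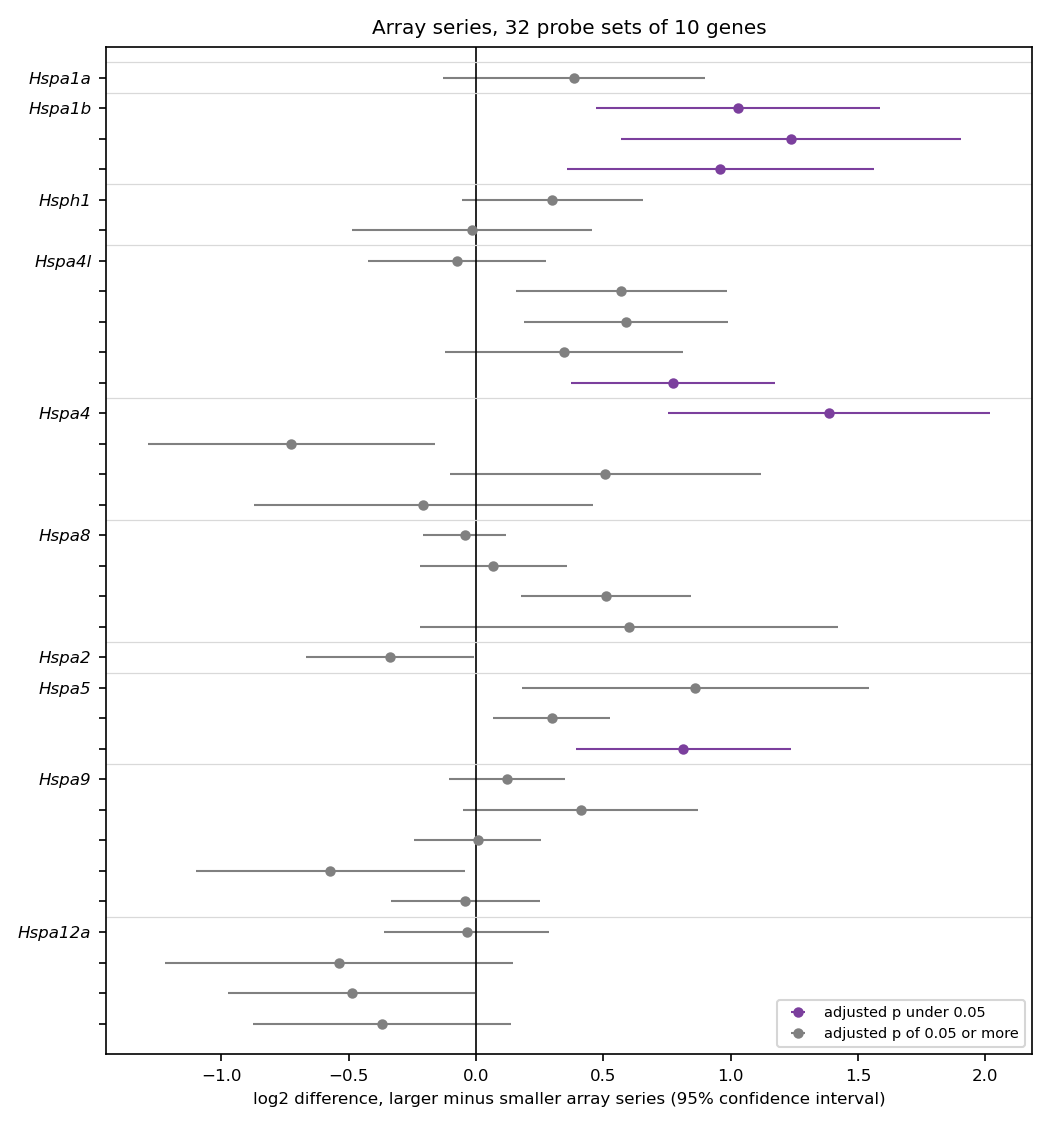
Log2 difference between the larger array series (11 samples) and the smaller one (4 samples), adjusted for genotype, for 32 probe sets in 10 genes, with bars for the 95% confidence interval. The 6 purple points, 3 of them Hspa1b, passed an adjusted p of 0.05, and the top Hspa4 point lies at 1.38.

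Whether KO minus WT differed between the array series was tested with an interaction term. It was past an adjusted p of 0.05 for 0 of 45037 probe sets (0% of all), and 2178 had an unadjusted p under 0.05, none of them a member. For Hspa1a the interaction, larger minus smaller series, was 0.17 (standard error 0.50, adjusted p = 0.991). The dimmest Hspa8 probe set had -1.15 (standard error 0.75, adjusted p = 0.975), the largest of the family in size. These standard errors show how little 2 KO and 2 WT samples can resolve.

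Hspa1a and the brightest Hspa1b probe set had higher signals in both libraries with a CA marker profile than in any of the other 14 unmarked samples. Here the library labelled 433 and the CA13-marked sample of 437 were set against the other 14 unmarked samples, as values with no test, since each is 1 library and they differ in genotype. Hspa1a had a signal of 2578 in the library labelled 433 and 2137 in the CA13-marked sample of 437, against 452 to 1105 (median 749) in the other 14. Both thus lay above all 14, and so did the granule-like CA13-marked sample of 433, at 1375. On the log2 scale these 3 lay 1.80, 1.52 and 0.92 above the median of the 14.
The brightest Hspa1b probe set also lay above the 14 in all 3 libraries, by a narrow margin. Its signal was 11052 in the library labelled 433, 11416 in the CA13-marked sample of 437 and 9660 in that of 433, against 2001 to 9178 in the other 14. The dimmer Hspa1b probe sets lay within the range of the 14 in all 3 libraries, so the Hspa1b probe sets did not agree.
Across the family, 7 of 32 probe sets had both libraries with a CA profile above the other 14, beside 5.57% of all probe sets, and 0 had both below, beside 4.55%. They were Hspa1a, the brightest of Hspa1b, 4 of the 5 Hspa4l probe sets and 1 of Hspa9. At a mean signal of at least 100, 7 of 25 member probe sets lay above, beside 8.62% of those tested, and 0 below, beside 7.85%. The count depended on the scaling, with 4 after median centring (Hspa1a, the same Hspa1b, 1 of Hspa4l and the brightest of Hspa4), beside 4.23%, and 8 with the deposited scaling, beside 5.87%. All 3 libraries, the CA13-marked sample of 433 included, lay above the 14 in 2 probe sets, Hspa1a and Hspa1b, beside 0.757% of all probe sets. Taken alone, the library labelled 433 was above the 14 in 8 members (11.2% of all probe sets), the CA13-marked sample of 437 in 10 (11.9%) and that of 433 in 4 (7.17%), with 2 below (7.93%).
Hspa4l had the broadest difference of the HSP110 genes. Its second brightest probe set had a signal of 1142 in the library labelled 433 and 1128 in the CA13-marked sample of 437, against 280 to 696 in the other 14, with 644 in the CA13-marked sample of 433. The 3 dimmer ones had 787 and 600 against 228 to 581, 398 and 500 against 148 to 393, and 296 and 549 against 97.9 to 266. The CA13-marked sample of 433 lay within the range of the 14 in all 4. The brightest Hspa4l probe set did not take part, with 1044 and 1369 against 791 to 1794.
The remaining members stayed mostly within the granule range. The brightest Hspa4 probe set was above it by its deposited signal, at 31332 and 34738 against 5170 to 31017, and within it after quantile normalization. Hspa9 had 2241 and 2596 against 1463 to 2015 in 1 probe set and lay within the range in its brightest. Hspa8, at 51758 and 48191 against 30481 to 70789, Hsph1, at 12750 and 12811 against 6236 to 12890, and Hspa5, at 6781 and 10246 against 2344 to 17138, lay within it in their brightest probe sets. Hspa2 was at 512 and 433 against 471 to 1071, below the 14 in the CA13-marked sample of 437 and high, at 984, in the CA13-marked sample of 433.

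**Figure D4:**
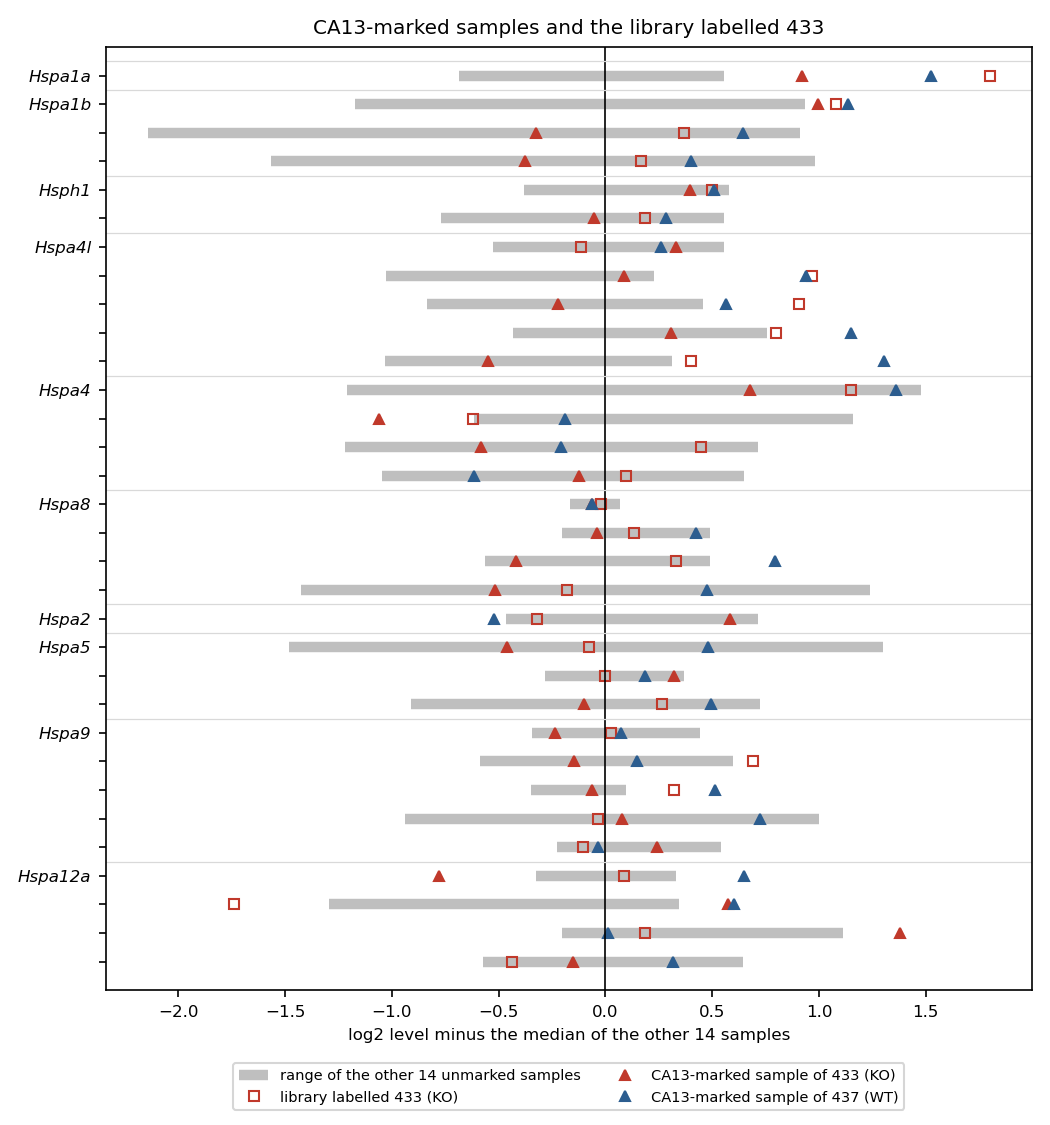
Log2 level of 32 probe sets in the library labelled 433 (open squares) and in the CA13-marked samples of 433 (red triangles) and 437 (blue triangles), each minus the median of the other 14 unmarked samples, whose range is the grey bar. The 3 symbols of Hspa1a lie at 1.80, 0.92 and 1.52, beyond the bar.

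Within a mark, the comparison holds genotype fixed. In mark 433 the unmarked sample minus the CA13-marked one, and in mark 437 the CA13-marked sample minus the unmarked one, both set a CA-like over a granule-like library. Hspa1a had 0.88 in mark 433 and 2.06 in mark 437, and the brightest Hspa1b had 0.08 and 1.23. The 4 Hspa4l probe sets named above had 0.49 to 1.13 and 0.44 to 1.10. Over the 32, the medians were 0.35 and 0.43, against 0.00 for both over all probe sets, and both differences were above 0 in 18 probe sets (30.9% of all probe sets). Both reached 1 in 0 members, beside 1.91% of all probe sets, and both fell to -1 or less in 0, beside 1.89%.
Other cell types moved less between these libraries. Interneuron markers had a mean log2 level of 10.08 in the library labelled 433 and 10.06 in the CA13-marked sample of 437, against 9.11 to 9.74 in other KO and 9.16 to 9.67 in WT samples, and 4 of 9 were above the 14 in both. Of 9 astrocyte, 8 oligodendrocyte and 10 microglia markers 0 lay above the 14 in both libraries, and of 9 endothelial and mural markers 1 did. The Gapdh ratio was 5.92 in the library labelled 433, 5.85 in the CA13-marked sample of 437 and 5.53 in that of 433, within the range of the other samples. The same ratio for beta-actin was 7.24 in the CA13-marked sample of 437, above the 5.61 to 6.54 of the KO and the 5.43 to 6.23 of the WT unmarked samples. It was 5.98 in the library labelled 433 and 6.18 in the CA13-marked sample of 433. The part of RNA quality and of the cell mixture in the chaperone values was not tested, and in captured tissue more of a cell type and more RNA per cell cannot be told apart.

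Members did not vary together as 1 family among the 14 granule-profile samples. The correlations here are of deviations from the genotype means over 14 samples that share scaling and RNA quality, and are descriptions. The 3 Hspa1b probe sets followed each other closely (Pearson r 0.923 to 0.984), as did those of Hspa5 (0.63 to 0.906). Those of Hspa4 (-0.558 to 0.59), Hspa8 (-0.549 to 0.326) and Hspa9 (-0.645 to 0.774) did not.
Between genes, the brightest probe sets of Hsph1 and Hspa5 had an r of 0.864 and those of Hspa2 and Hspa5 -0.865. By Spearman rank correlation these pairs had 0.851 and -0.745. The WT sample 392 was the highest of the 14 for Hspa2 and the lowest for Hspa5. By Pearson r, Hspa1a had 0.564 with Hspa1b, 0.668 with Hspa5 and 0.05 with Hspa8, and Hspa4 had -0.78 with Hspa8. With the dimmer Hspa8 probe sets, from the brightest down, the same Hspa4 probe set had -0.03, 0.883 and 0.323. The value for Hspa4 and Hspa8 thus depended on the probe set. Several probe sets followed the Gapdh ratio, with 0.806 for the bright one of Hsph1 and 0.656 to 0.726 for Hspa5. Hspa1a had 0.603 and the brightest Hspa4l probe set -0.708. The dim Hsph1 probe set had -0.121 and the other Hspa4l probe sets 0.306 to 0.598, so probe sets of these 2 genes did not agree. The part of RNA quality in the correlations between genes was not tested.
Among the 18677 other probe sets with 1 symbol and a mean above the median, the closest to Hspa1a over the 14 samples was Rabgap1l (r = 0.922), then Oip5os1 (0.875), Zfp54 (0.869) and Nalcn (0.866). For the brightest Hspa8 probe set the closest was Tcp1, a subunit of the chaperonin TRiC (0.909), then Zfp182 (0.902), Timeless (0.90) and Farsb (0.897). That probe set varied little (standard deviation within groups 0.07). Its r with the other Hspa8 probe sets was 0.326, -0.549 and -0.239, so these partners hold for that probe set only. Sfpq, a splicing factor, was the closest to Hspa5 (0.957), then Abhd12 (0.938), Serbp1 (0.937) and Bag4 (0.937), an exchange factor for HSP70.

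**Figure D5:**
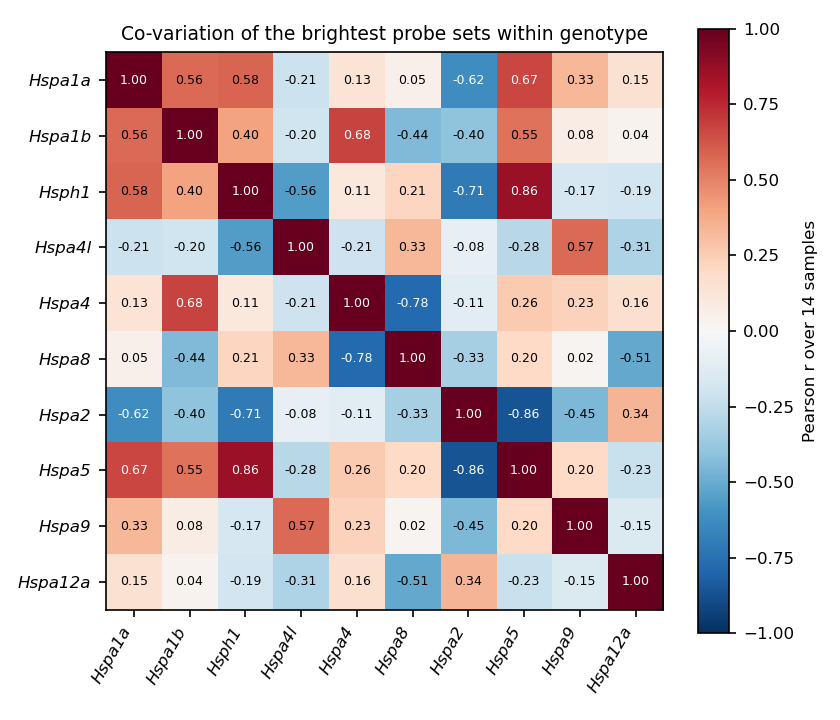
Pearson correlation over 14 unmarked samples of the deviations from the genotype means, for the brightest probe set of each gene on both axes. Hsph1 with Hspa5 is at 0.86 and Hspa2 with Hspa5 at -0.86, while Hspa8 with Hspa1a is at 0.05.

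The partners of the family also showed no call between KO and WT, by the brightest probe set of each gene and with an unadjusted p under 0.05 for 1.53% of 18193 genes in the higher and 1.52% in the lower direction. Of 17 measured heat shock genes induced with HSP70, 0 were called and 1 had an unadjusted p under 0.05, Cryab, a small heat shock protein, with a log2 fold change of 0.57. The 3 Cryab probe sets ranged from 0.03 to 0.57. Bag3, an exchange factor for HSP70 in selective autophagy, had -0.33, the small heat shock protein Hspb1 -0.15 and the mitochondrial chaperonin Hspd1 0.19. The list median was -0.05, against 0.01 over all genes.
Of 22 measured co-chaperones and exchange factors 0 had an unadjusted p under 0.05 and the median was -0.02. The exchange factor Bag1 had -0.27, the J-domain protein Dnajb6 0.18, the mitochondrial exchange factor Grpel2 -0.10 and the synaptic J-domain protein Dnajc5 0.11. Of 18 endoplasmic reticulum stress genes 0 had an unadjusted p under 0.05, and the median was 0.00, with the transcription factors Xbp1 at -0.30 and Ddit3 at -0.35, the disulfide isomerase Pdia4 at 0.31 and Creld2 at -0.27.
The rest of the HSP70 and HSP110 family, 5 genes, had a median of -0.07 and 0 at an unadjusted p under 0.05, with Hspa1l at 0.12, Hspa14 at -0.29, Hspa12b at -0.09 and Hspa13 at 0.17. Hspa13 and Hyou1, the endoplasmic reticulum HSP110, were above the other 14 in both libraries with a CA profile, where 7.26% of all genes were. Of 5 heat shock factors 3 were measured by a probe set of their own symbol alone, and Hsf1 and Hsf3 were not. Hsf2, Hsf4 and Hsf5 had -0.02, -0.15 and -0.10.
Of 18 immediate early genes, which neurons induce on activity, 7 were above and 3 below the other 14 samples in both libraries with a CA profile (beside 7.26% and 5.94% of genes). Unlike Hspa1a, 0 of these 7 were above the 14 in the CA13-marked sample of 433. Egr1 had a KO minus WT log2 fold change of 0.67, or 0.54 without the library labelled 433. Nr4a1 had 0.46 and 0.18, Fos 0.53 and 0.48, and Jun -0.59 and -0.27. The median of the 18 was 0.17, 0 were called, and 1, Egr1, had an unadjusted p under 0.05 in limma. The part of these genes in the Hspa1a values was not tested.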

How the data were processed

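The authors deposited signal intensity of 45101 probe sets on 17 arrays, on a linear scale and scaled to a trimmed mean of 500 per array. The submitters' processing notes name MAS5, whereas the study's methods name RMA and SAM, and RMA was not repeated because scanner files were not used here. The scale leaves the unit arbitrary, and the number of arrays limits the precision.

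The 64 control probe sets were dropped, log2(signal + 32) was taken and arrays were quantile normalized. The added 32 understates changes of dim probe sets. limma 3.58.1 in R 4.3.3 with eBayes and an intensity trend was fitted to 45037 probe sets with Benjamini-Hochberg adjustment. Intervals cover 95%. Of these steps, only the limma fit of KO against WT was tested on simulated data, with independent normal noise. Genes were named from the platform annotation (34945 probe sets with 1 symbol, 932 with several, 9160 with none), and Entrez IDs of all 10 genes matched the RefSeq table of GRCm38.p6. Where probes lie in a transcript was not analysed here.

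The members, gene lists and rules were chosen with earlier results of these data known. Named were all member probe sets and up to 4 genes per list with the smallest p. The 4 genes closest to the brightest probe sets of Hspa1a, Hspa8 and Hspa5 were also named. List genes named for the libraries with a CA profile (Hyou1) were chosen after their values were seen. Alternatives covered pseudocounts of 1 and 128, scaling, a filter at a mean signal of 100, sample choice, array series, RNA quality, array weights, SAM with 100 permutations and the methods' t-test.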

Additional observations from a re-analysis of the deposited data

Results flagged for a closer look

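Samples of 1 group that lay far from the others were looked for in the 32 probe sets of KO and of WT with Dixon's criterion, on quantile-normalized log2 values. It marked 8 of 64 groups. Its cut marks about 1 in 20 groups of independent normal values, but these groups share arrays and genes. The share over all probe sets was not computed, so nothing about the family is read from this count. In KO, the library labelled 433 was the highest for Hspa1a, at 11.4 with the nearest sample at 10.16, and for the second brightest Hspa4l probe set, at 10.27 with the nearest at 9.523. The KO sample 384 was the highest for the brightest Hspa9 probe set, at 13.26 with the nearest at 12.87, and for the dimmest, at 5.83 with the nearest at 5.354. In WT, sample 392 stood apart 4 times. It was the lowest for Hspa4l, at 8.258 with the nearest at 9.245 in the second brightest and at 7.98 with the nearest at 8.669 in the third probe set, and the highest for Hspa2, at 10.16 with the nearest at 9.482, and for the dimmest Hspa9 probe set, at 5.857 with the nearest at 5.443. Leaving out 433 took the Hspa1a log2 fold change to 0.49, and leaving out 392 took that of the second brightest Hspa4l probe set to -0.00.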

How the results depend on the processing

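The count of members called between KO and WT was 0 in every setting run except the methods' t-test without adjustment, which had 1. For SAM the 2-fold cut was enough to fix that 0, and no member passed its FDR of 5% either. Over all probe sets the same settings called 0 to 8, apart from that t-test, which had 1509. Leaving out each sample in turn gave -0.24 to 0.22 for the brightest Hspa5 probe set, which changed sign, and 0.20 to 0.70 for the second brightest of Hspa1b. The other settings moved 4 single values by more than 1 SD, the brightest Hspa8 probe set to -0.05 with the deposited scaling and -0.06 after median centring, the dimmest Hspa8 to 0.23 and an Hspa12a probe set to -0.71, both within the smaller series. The median over the family lay between -0.03 and 0.08. Between array series the count of 6 was 1 to 7 when each sample was left out (2.18% to 6.47% of all probe sets higher) and 1 with RNA quality as a covariate (1.85%), both chosen after seeing the data, and 9 at a mean signal of at least 100 (12% of those tested). The count of 7 above the granule samples was 4 after median centring and 8 with the deposited scaling. KO and WT could not be paired, because no mark in the titles is shared between them.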
